A study of Saccharomyces cerevisiae with 5 samples.

Results

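The subunits of yeast RNA polymerases I, II and III are described here across 5 phosphate doses. The list holds 31 genes, named by their symbols, and each of the 31 had a probe set on the array that passed the filters, among 4824 genes measured in all. By textbook composition 7 of them encode subunits found only in polymerase I, 7 only in polymerase II and 10 only in polymerase III. The other 7 are shared: RPC40 and RPC19 by polymerases I and III, and RPB5, RPO26, RPB8, RPB10 and RPC10 by all 3 enzymes. The cells were budding yeast of the strain W303, and every sample carried PHO4-MYC::TRP1, a MYC-tagged PHO4 gene with TRP1 as its marker, so there was no untagged control. Log-phase cultures were kept without phosphate for 3 h and then given 0, 0.01, 0.1, 1 or 10 mM phosphate for 80 min, and RNA of each dose was measured on 1 Affymetrix array. There were therefore no replicates, and the differences between single arrays have no replicate error.

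RNA polymerase I makes the large ribosomal RNA precursor, polymerase II makes messenger RNAs, and polymerase III makes transfer RNAs and the 5S ribosomal RNA. The 3 enzymes have a common core of subunits that are the same protein or related proteins, to which polymerases I and III add subunits that act like separate initiation factors of polymerase II. In growing yeast most transcription serves the making of ribosomes, and genes for polymerase I and III subunits are known to be coordinated with genes of ribosome assembly.

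Signal is the MAS5 summary of a probe set on a linear scale, and values under 11.4, the 40th percentile over the 5 arrays, were treated as background. The median signal of an array lay between 17.0 and 25.5 and was highest at 0 mM. The median log2 difference from 0 mM over all genes was -0.24, -0.20, -0.37 and -0.26 for the doses 0.01, 0.1, 1 and 10 mM. Relative to the array of 0 mM, the signal of poly-A spike-in controls was reduced 3.18-fold on that of 0.01 mM and 10.9-fold on that of 10 mM. The 3′ to 5′ signal ratio of ACT1 was 3.00 at 0.01 mM and 1.11 to 2.37 on the other arrays, and that of the TATA-binding protein gene was 4.52 against 1.51 to 2.63. Markers of phosphate starvation were high at 0 and 0.01 mM and lower above. Signals of PHO5, an acid phosphatase gene, were 1418, 1222, 28.0, 22.0 and 24.4 in dose order. PHO84, with 1370, 1157, 172, 27.8 and 27.4, was in between at 0.1 mM. VTC3 and SPL2 were also high at 0 and 0.01 mM and lower above. The stress genes HSP26 (1121, 905, 20.4, 11.4 and 11.4, with 11.4 standing for values below background) and HSP12 (2070.2, 2864, 648, 517 and 504) had the same division of the arrays. Signals of PHO4 were 62.7, 44.8, 76.3, 54.3 and 78.8, and those of TRP1 were 110.1, 62.3, 109, 84.1 and 125. The labels give no mating type. All 5 markers of MATa cells (STE2, BAR1, MFA1, MFA2 and AGA2) were measured, with STE2 at 50.3 to 117, and 0 of the 4 markers of MATalpha cells (STE3, SAG1, MF(ALPHA)1 and MF(ALPHA)2) passed the filters.

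Of the 17 genes for subunits found only in polymerase I or only in polymerase III, 9 were higher at 0.1 mM phosphate and above than at 0 and 0.01 mM, and 1 of the 7 for polymerase II was, RPB9. The mean of the 3 higher doses was compared with the mean of the 2 lower doses in every gene, as a log2 difference called the step difference (limma with Benjamini-Hochberg adjustment over 4824 genes, threshold 0.05). The doses were parted there because earlier results of these data showed a step at that place. The p-values of this comparison do not allow for that choice and can therefore be too small. Of the 31 subunit genes 14 rose across the step, 0 fell and 17 did not pass. Of all genes 11.4% rose and 22.0% fell. The 14 were 5 of the 7 genes of polymerase I, 4 of the 10 of polymerase III, 4 of the 7 shared genes and 1 of the 7 of polymerase II. This split by class moved with the setting. In the same order it was 1, 2, 2 and 1 with no filter on dim probe sets, beside 4.24% of all genes. It was 3, 3, 1 and 1 without the array of 0.1 mM, 2, 2, 2 and 1 without that of 1 mM and 2, 2, 1 and 1 without that of 10 mM. With arrays scaled to 1 median it was 7, 8, 6 and 2, beside 23.6% of all genes. Without the array of 0.01 mM the median step difference was 0.64 for polymerase I and 0.47 for polymerase III. With all 5 arrays it was 1.00 and 0.79. For the shared genes it was 0.72 without that array against 0.80, and for polymerase II -0.07 against 0.12. For 21 of the 31 genes all 3 arrays of 0.1 mM and above were over both lower doses, against 21.9% of all genes. The opposite order was found for 1 gene, RPB11, and for 37.3% of all genes. The arrays on either side are different doses and not replicates of a condition, so the error is the scatter among doses. With 1 array left out the count was 12 without 0 mM, 6 without 0.01 mM, 8 without 0.1 mM, 7 without 1 mM and 6 without 10 mM. The share of all genes that rose was lower in these fits too, at 7.46%, 6.34%, 5.95%, 5.31% and 6.34% in the same order. RPA135, RPA34, RPB5 and RPB9 rose in each of these 5 fits, while the other 10 of the 14 missed the threshold in at least 1 of them. With arrays scaled to 1 median the count was 23, beside 23.6% of all genes, and after quantile normalization it was 21, beside 20.9%. Scaling to 1 median adds 0.32 to the step difference of genes above background, and equal spike-in signal adds 2.26, which turns the sign of any smaller fall. With the doses parted between 0.1 and 1 mM instead, 0 of all genes passed in either direction. The arrays measure shares of the labelled RNA of a culture, so in this bulk measurement fewer cells of a kind and less RNA per cell cannot be told apart. The starvation and stress markers above move across the same step, and their part in these results was not tested.

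**Figure D1:**
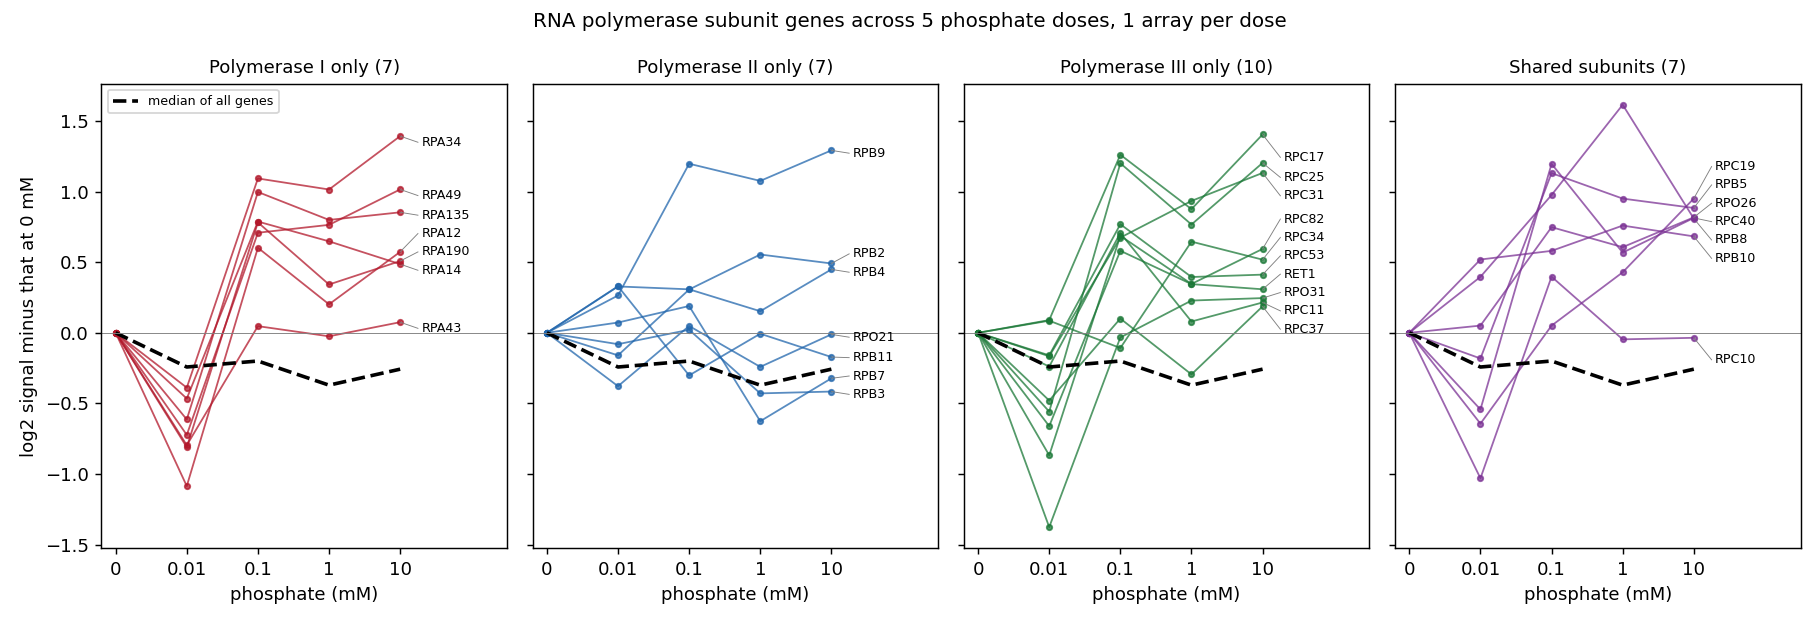
Log2 signal of each subunit gene relative to its own signal at 0 mM (y axis) at 0, 0.01, 0.1, 1 and 10 mM phosphate (x axis, in dose order), in 4 panels by the polymerase that holds the subunit. Each line is 1 gene with 1 array per dose, and the dashed line is the median of all 4824 genes. All 7 genes of polymerase I are lowest at 0.01 mM and higher at 0.1 mM, and in polymerase II RPB9 is the highest line from 0.1 mM on.

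A straight line in dose order found less. None of the 31 genes rose or fell along it (limma with Benjamini-Hochberg adjustment over all genes), where 1.16% of all genes rose and 8.13% fell, and 9 of the 31 had an unadjusted p under 0.05, beside 32.1% of all genes, so this count does not set the subunits apart. RPC31 had the smallest unadjusted p among the subunits, 0.00792, with a slope of 0.34 ± 0.09 per dose step (log2, SE, 5 arrays) and an adjusted p of 0.0611. Without the array of 0.1 mM 4 genes rose on this line, RPA34, RPB9, RPC17 and RPC31, beside 4.68% of all genes, and without that of 10 mM 1 gene did, RPB8, beside 2.43%. The lines in the plot by dose show the shape that a straight line misses: for 24 of the 31 genes the largest change between neighbouring doses lay between 0.01 and 0.1 mM, as it did for 50.6% of all genes.

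In polymerase I 5 of 7 genes rose and 2 did not pass, RPA43 and RPA12. RPA190 and RPA135 encode the largest and the second largest subunit, which together form the active centre. RPA135 had signals of 122, 79.8, 244, 212 and 220.5 at 0, 0.01, 0.1, 1 and 10 mM. The signals at the 3 higher doses were all above those at the lower ones, and the step difference was 1.19 ± 0.24 (log2, SE, 5 arrays; adjusted p = 0.0103, limma), or 2.28-fold. RPA190 was covered by 7 probe sets, of which 3 reached the background level on at least 2 arrays and were averaged, and 1 was bright on every array, with signals of 166, 71.5, 217, 282 and 261. The lowest array was again that of 0.01 mM. The averaged gene rose by 0.95 ± 0.29 (adjusted p = 0.0405, limma), and the bright probe set alone gave 1.21. Of the 2 dimmer probe sets in the average, 1 reached background only at 0.1 and 10 mM, and the other was below it at 0.01 mM. Their values below background were set to the background level, so the averaged difference rests in part on such values.

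RPA49 and RPA34 form a pair that resembles the general factor TFIIF of polymerase II. RPA34 had signals of 99.6, 76.1, 212, 201 and 262, and its step difference of 1.36 ± 0.23 (adjusted p = 0.00497, limma) had the highest value of the 31 genes. RPA49 had signals of 101, 61.2, 165, 172 and 204 and rose 2.28-fold across the step. These were the 2 genes of polymerase I that were at least 2-fold higher at 10 mM than at 0 mM. RPA43 and RPA14 encode the stalk, where RPA43 binds the initiation factor encoded by RRN3. RPA14 had signals of 191, 138, 329, 299 and 267 and rose 1.83-fold. RPA43 had signals of 111, 63.8, 114, 109 and 117, so that the array of 0.01 mM was low while 0 mM lay among the 3 higher doses, and its step difference of 0.43 ± 0.27 did not pass (adjusted p = 0.252, limma). RPA12, for a zinc ribbon subunit needed for cleavage of the RNA, had signals of 150.0, 70.7, 228, 173 and 223. All its higher doses were above both lower ones, yet the step difference of 1.00 ± 0.34 missed the threshold (adjusted p = 0.0556, limma). RPA43 and RPA190 are next to each other in the genome in the RefSeq annotation of assembly R64, the 1 such pair among the 31 genes. Their changes from 0 to 0.01 mM were -0.80 and -0.81, and those from 0 to 10 mM were 0.08 and 0.51. The values of RPA190 are averages that rest in part on signals set to the background level. Of its probe sets in the average, 1 was below background at both 0 and 0.01 mM, with 4.73 and 1.53. The close match of -0.80 and -0.81 is therefore no measure of how alike the 2 genes were.

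In polymerase III 4 of 10 genes rose and 6 did not pass. RPC25 and RPC17 encode its stalk. RPC25 had signals of 44.1, 30.0, 101, 75.1 and 102 and rose by 1.34 ± 0.26 (adjusted p = 0.00858, limma). RPC17 had signals of 22.9, 24.3, 54.8, 41.9 and 60.5 and rose by 1.14 ± 0.23. For both genes the 3 higher doses were above the lower ones, although RPC17 showed no dip at 0.01 mM. The trimer of RPC82, RPC34 and RPC31 acts in initiation, and its members differed from each other. RPC82 had signals of 49.0, 26.8, 78.8, 62.2 and 73.9 and rose 1.97-fold, and RPC31 had signals of 34.6, 30.8, 55.2, 66.0 and 75.8 and rose 1.99-fold. RPC34, whose product contacts the initiation factor TFIIIB, had signals of 33.9, 35.9, 31.4, 52.9 and 48.5. It was higher at 1 and 10 mM but not at 0.1 mM, and its step difference of 0.31 ± 0.27 did not pass.

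The large catalytic subunits of polymerase III did not pass either. RPO31, for the largest subunit, had signals of 105, 40.3, 102, 122 and 124, with 1 low array, that of 0.01 mM. Its step difference was 0.83 ± 0.38 (adjusted p = 0.136, limma). RET1, for the second largest, had signals of 159, 100.3, 237, 201 and 196 and a step difference of 0.74 ± 0.25 (adjusted p = 0.0594, limma), with all higher doses above the lower ones. RPC53 and RPC37 encode a TFIIF-like pair that acts in termination. RPC53 had signals of 86.7, 77.6, 148, 114 and 115 and RPC37 had 90.2, 64.7, 96.7, 73.5 and 103, and neither passed, with step differences of 0.61 ± 0.22 and 0.24 ± 0.25. The array of 0.01 mM was the lowest for both. RPC11, for the subunit of RNA cleavage and repeated initiation, had signals of 119, 101, 194, 126 and 138 and a step difference of 0.45 ± 0.25 that did not pass. Its array of 0.1 mM was the highest. Each of the 10 genes had a positive step difference, from 0.24 to 1.34, although that of RPC37 was -0.0022 without the array of 0.01 mM.

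The shared subunits differed at 0.01 mM, with log2 differences from 0 mM between -1.03 and 0.52. RPC40 and RPC19 form the alpha-like pair on which polymerases I and III assemble. RPC40 had signals of 95.3, 65.4, 218, 141 and 167 and rose by 1.13 ± 0.27 (adjusted p = 0.0187, limma). RPC19 had signals of 306, 196, 317, 412 and 592 and a step difference of 0.80 ± 0.32 that did not pass (adjusted p = 0.0972, limma). Its signal at 0.1 mM was close to that at 0 mM and was higher again at 1 and 10 mM. Both were lowest at 0.01 mM, as were RPB5 and RPC10 among the subunits common to the 3 enzymes.

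Of the subunits common to the 3 enzymes, RPB5 had signals of 159, 140.2, 348, 307 and 293 and rose by 1.08 ± 0.20 (adjusted p = 0.00752, limma). RPO26 had 341, 353, 573, 519 and 601 and rose 1.62-fold, with no dip at 0.01 mM. RPB8 had 140.3, 185, 276, 429.8 and 246, with its highest array at 1 mM, and rose 1.91-fold. RPB10 and RPC10, which encode the smallest common subunits, did not pass. RPB10 was already higher at 0.01 mM, with signals of 315, 451, 471, 533 and 506. In contrast, RPC10 was low on that array, with 248, 121, 326, 239.9 and 242, and its values at 1 and 10 mM were close to that at 0 mM. From 0 to 0.01 mM the 5 common genes therefore ranged from -1.03 (RPC10) to 0.52 (RPB10) on the log2 scale.

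In polymerase II 1 of 7 genes rose and 6 did not pass. RPO21 encodes the largest subunit, whose C-terminal repeats are phosphorylated during transcription. Its signals were 125, 95.9, 129, 105 and 124, the step difference was 0.12 ± 0.22 (adjusted p = 0.701, limma), and the 2 groups of doses overlapped. RPB2, for the second largest subunit, had signals of 130.3, 117, 161, 191 and 183. Its higher doses were above the lower ones, but the step difference of 0.53 ± 0.20 did not pass (adjusted p = 0.0805, limma).

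The alpha-like genes RPB3 and RPB11 had signals of 101, 95.7, 103, 75.2 and 75.8 and 120.1, 151, 97.4, 119.6 and 107. Their step differences of -0.23 ± 0.22 and -0.32 ± 0.21 were negative and did not pass. Scaling the arrays to 1 median changed that of RPB3 to 0.09, and quantile normalization changed it to 0.04. RPB7 and RPB4 encode the stalk, which can leave the enzyme in yeast. RPB7 had signals of 139, 146, 159, 90.1 and 111 and was lower at 1 and 10 mM than at the other doses. The step difference was -0.29 ± 0.27, and scaling the arrays to 1 median changed it to 0.03. RPB4 had signals of 102, 129, 127, 114 and 139.8 with a step difference of 0.14 ± 0.21. RPB9 was the exception. It encodes the zinc ribbon subunit that acts in the choice of start sites and in fidelity, had signals of 59.6, 71.6, 137, 126 and 146 and rose by 1.06 ± 0.20 (adjusted p = 0.00855, limma). All 3 higher doses were above both lower ones, and its change was 2.45-fold from 0 to 10 mM.

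**Figure D2:**
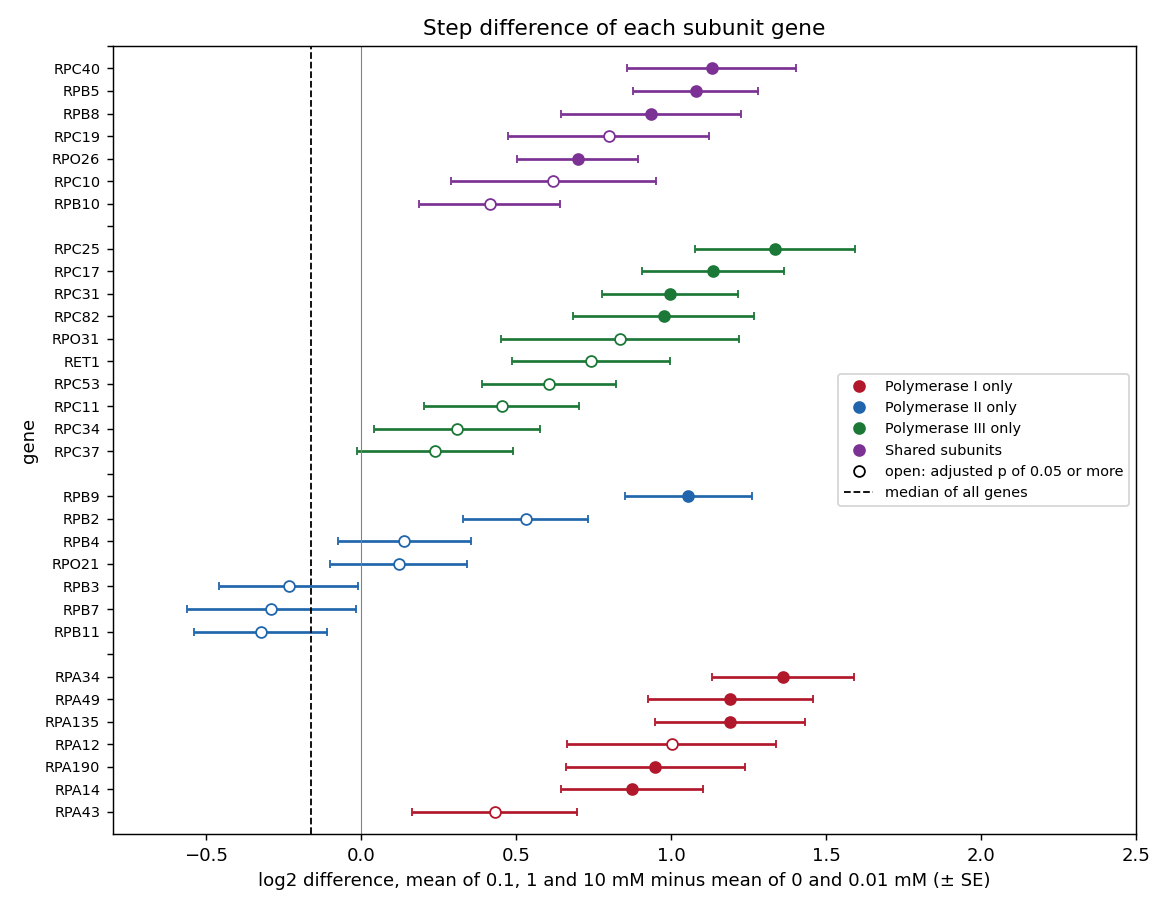
Step difference of each of the 31 genes (x axis: mean log2 signal at 0.1, 1 and 10 mM minus that at 0 and 0.01 mM; bars are the SE of the fit over 5 arrays), grouped and coloured by polymerase on the y axis. Filled points passed the threshold of 0.05 and open points did not, and the dashed line is the median of all genes, -0.16. The filled points are 5 genes of polymerase I, 1 of polymerase II, 4 of polymerase III and 4 shared genes.

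From 0 to 0.01 mM, before the step, genes of polymerase I were lower by a median of 1.65-fold, which is a log2 difference of -0.72. All 7 were lower at 0.01 mM, with log2 differences between -0.39 (RPA34) and -1.09 (RPA12). That of RPA190, -0.81, is an average that rests in part on values set to the background level. Its bright probe set alone was more than 2-fold lower, with signals of 166 at 0 mM and 71.5 at 0.01 mM. The median was -0.36 for polymerase III, -0.18 for the shared genes (0.12 with arrays scaled to 1 median and 0.01 after quantile normalization) and 0.07 for polymerase II. For all genes it was -0.24, and 69.5% of them were lower at 0.01 mM. Relative to that median polymerase I stood at -0.48, polymerase III at -0.12, the shared genes at 0.06 and polymerase II at 0.31. RPA12, RPC10 and RPO31 were at least 2-fold lower at 0.01 mM, 2.12, 2.04 and 2.60-fold, 3 of the 31 genes beside 6.84% of all genes. None was at least 2-fold higher, where 2.16% of all genes were. The array of 0.01 mM held the lowest of the 5 values for all 7 genes of polymerase I, 8 of 10 of polymerase III, 4 of 7 shared genes and 2 of 7 of polymerase II, and for 26.6% of all genes. With arrays scaled to 1 median those counts were 7, 5, 3 and 1, beside 23.1% of all genes, and after quantile normalization they were again 7, 5, 3 and 1, beside 23.9%. Equal spike-in signal moves all genes up at 0.01 mM alike: 16 of 4824 genes were then lowest there, none of the 31 among them, which says nothing about the subunits in particular. On this array the 3′ to 5′ ratios exceeded those of the other 4, at 3.00 for ACT1 and 4.52 for the TATA-binding protein gene, and their part in the low values was not tested.

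From 0.01 to 0.1 mM 28 of the 31 genes were higher, beside 50.9% of all genes. The median difference was 1.48 (2.79-fold) for polymerase I, 1.06 (2.08-fold) for polymerase III, 0.70 for the shared genes and 0.12 for polymerase II, with 0.01 for all genes. At least 2-fold higher were 6 of 7 genes of polymerase I, 5 of 10 of polymerase III, 3 of 7 shared genes and 0 of 7 of polymerase II, 14 of 31 in all, beside 12.8% of all genes. None of the 31 was at least 2-fold lower, where 12.3% of all genes were. RPC25 had the largest difference, 3.38-fold, followed by RPC40 with 3.34-fold and RPA12 with 3.22-fold. The 3 genes lower at 0.1 mM than at 0.01 mM were RPB11 (-0.63), RPC34 (-0.19) and RPB4 (-0.02). These differences include the low values at 0.01 mM: relative to 0 mM, the medians at 0.1 mM were 0.78 for polymerase I, 0.68 for polymerase III, 0.75 for the shared genes and 0.19 for polymerase II. The 2 arrays compared here also had the highest and the lowest 3′ to 5′ ratio of ACT1, 3.00 at 0.01 mM and 1.11 at 0.1 mM. For the TATA-binding protein gene the ratios were 4.52 and 2.01. Their part in these differences was not tested.

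Above 0.1 mM the differences were smaller. None of the 31 genes differed at least 2-fold between 0.1 and 1 mM, where 1.24% of all genes were lower and 1.26% higher by that much, or between 1 and 10 mM, where 0.808% were lower and 0.498% higher. The widest difference between 1 and 10 mM was that of RPB8, -0.81. Between the end doses, 10 mM gave signals at least 2-fold above 0 mM for 6 genes, beside 7.52% of all genes, and 0 were at least 2-fold lower, beside 21.2%. The 6 were RPC17 (2.65-fold), RPA34 (2.63-fold), RPB9 (2.45-fold), RPC25 (2.30-fold), RPC31 (2.19-fold) and RPA49 (2.02-fold). The medians of 10 minus 0 mM were 0.57 for polymerase I, 0.46 for polymerase III, 0.81 for the shared genes and -0.01 for polymerase II, where the median of all genes was -0.26. In 120 genes measured by a pair of probe sets, the SD of a probe set around its gene was 0.61 for this difference and 0.54 for the step difference. It measures how probe sets on the same arrays disagree, and the error between arrays could not be measured.

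The structural counterparts of the 3 enzymes can be set side by side at 7 positions that have a polymerase II subunit. At each of them the polymerase I or III counterparts, 12 genes in all, had a lower log2 difference of 0.01 minus 0 mM than the polymerase II gene. Several of these polymerase II genes were higher at 0.01 mM: RPB11 (0.33), RPB7 (0.07), RPB4 (0.33) and RPB9 (0.26). Since 69.5% of all genes were lower at 0.01 mM, most genes of any kind would count as lower at those positions. The count also includes RPC17, whose own difference was 0.09. For the largest subunits the log2 differences were -0.81 for RPA190 and -1.38 for RPO31 against -0.38 for RPO21, and for the zinc ribbon subunits -1.09 for RPA12 and -0.24 for RPC11 against 0.26 for RPB9. A shift of a whole array by 1 amount leaves these comparisons as they are, but an array effect that differs between genes would change them. For ACT1 the 3′ to 5′ ratio was 3.00 at 0.01 mM, against 1.11 to 2.37 at the other doses. Whether RNA quality on that array entered these comparisons was not tested. The step difference was larger than that of the polymerase II gene for 10 of the 12. At the alpha-like position RPC40 had 1.13 against -0.23 for RPB3, and at the second alpha-like position RPC19 had 0.80 against -0.32 for RPB11. At the stalk, RPC25 had 1.34 and RPA43 0.43 against -0.29 for RPB7. The 2 exceptions stood at the zinc ribbon position, where RPB9 had 1.06, RPA12 1.00 and RPC11 0.45. With 1 array per dose these differences between genes were not tested.

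**Figure D3:**
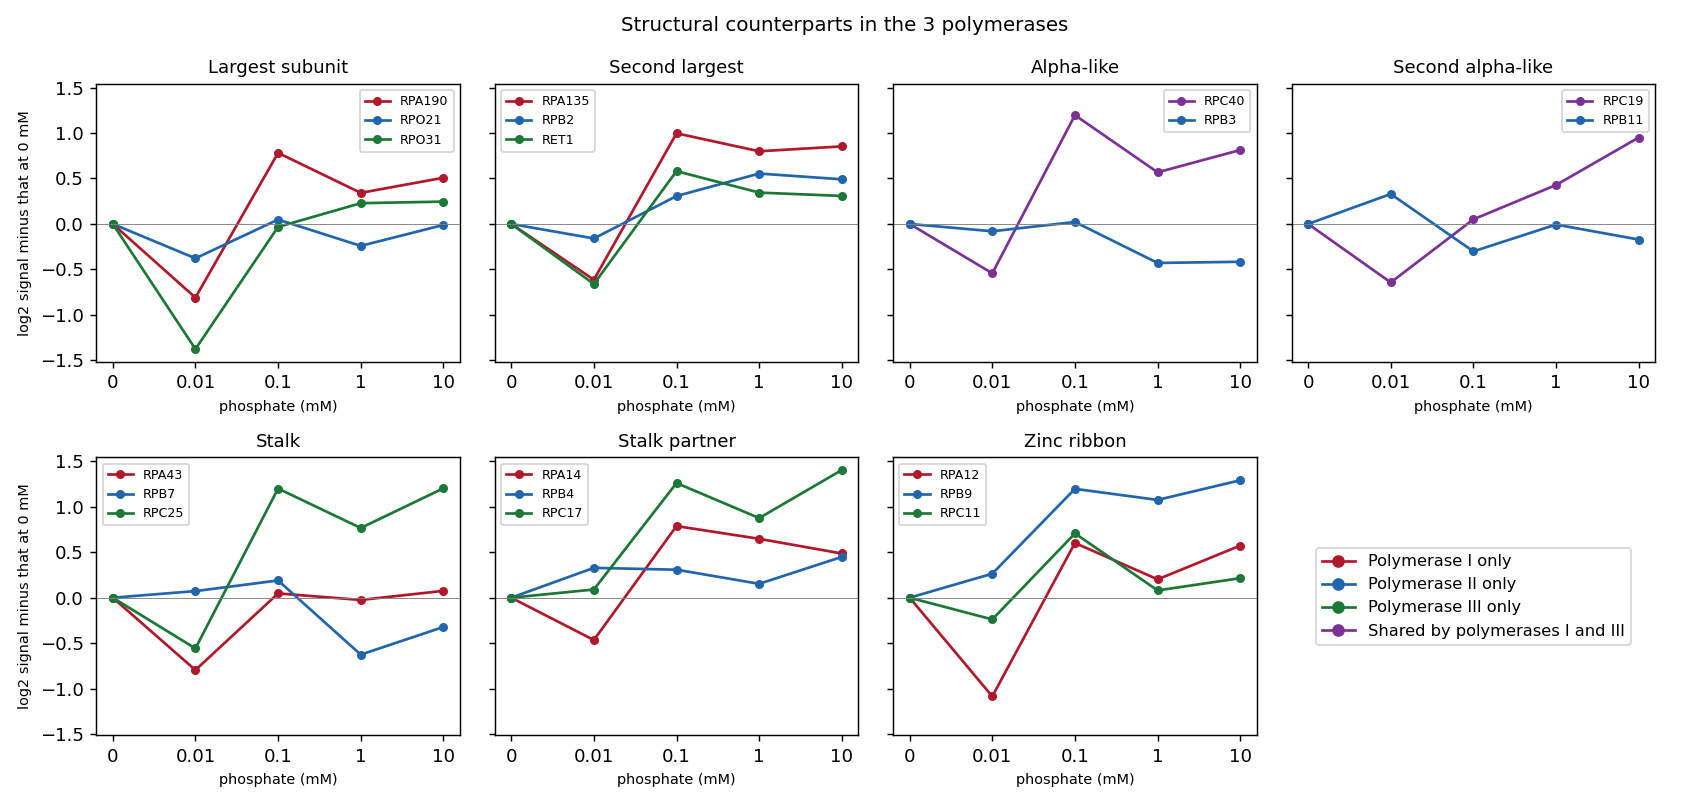
Log2 signal relative to 0 mM (y axis) by phosphate dose (x axis, in dose order) for the genes at 7 structural positions, with polymerase I in red, polymerase II in blue, polymerase III in green and subunits shared by polymerases I and III in purple. Each point is 1 array. At 0.01 mM the blue line is the highest of each panel, and at the zinc ribbon position the blue line, RPB9, is also the highest at every dose above it.

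The subunits of each enzyme were compared with the shared ones by their medians. The median step difference was 1.00 for polymerase I, with a range of 0.43 to 1.36, 0.79 for polymerase III (0.24 to 1.34), 0.80 for the shared genes (0.41 to 1.13) and 0.12 for polymerase II (-0.32 to 1.06), beside -0.16 for all genes. Polymerase II minus the shared genes was thus -0.68. In the fits that left out 1 array this difference lay between -1.14 and -0.55, and it was -0.50 after quantile normalization. Polymerase I stood 0.20 above the shared genes, but -0.08 without the array of 0.01 mM and -0.03 without that of 0.1 mM. Polymerase III stood at -0.01 from them, and this turned to 0.14 after quantile normalization, 0.03 without the array of 1 mM and 0.10 without that of 10 mM. The members of each class were chosen with results of these data known, so no test over a class was made. Leaving out the array of 0.01 mM, the medians were 0.64 for polymerase I, 0.47 for polymerase III, 0.72 for the shared genes and -0.07 for polymerase II. With arrays at equal spike-in signal they were 3.26, 3.04, 3.05 and 2.38, since that scaling adds the same amount to every gene.

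The factors that work with the polymerases were described from lists of known members. Of the 9 initiation genes of polymerase I, all measured, 2 rose and 0 fell across the step. RRN3, whose product joins polymerase I to the promoter complex through RPA43, had signals of 69.9, 44.2, 112, 88.2 and 119.8 and rose by 0.93 ± 0.27 (adjusted p = 0.0347, limma). RRN5, for a subunit of the upstream activation factor, had averaged signals of 15.3, 23.7, 48.8, 37.9 and 49.9 and rose 2.38-fold. The average was of 2 probe sets, and the brighter had signals of 20.4, 48.9, 121, 111 and 129. The dimmer was below background at 0 and 0.01 mM, with 8.37 and 6.51, and was set to the background level there. Another probe set of this gene was below background on every array and was left out. Of the 9 genes for polymerase III initiation and its repressor 0 rose and 2 fell. MAF1, the repressor that shuts polymerase III down in poor conditions, had signals of 127, 60.5, 20.9, 17.8 and 22.9. It was high at 0 mM, lower at 0.01 mM and lowest from 0.1 mM on, and it fell across the step, with a difference of -2.10 ± 0.33 (adjusted p = 0.00383, limma). MAF1 also fell along the doses, with a slope of -0.67 ± 0.16 and an adjusted p of 0.0448 in limma. TFC3, for the TFIIIC subunit that binds the promoter inside transfer RNA genes, had signals of 28.4, 28.0, 18.0, 11.9 and 19.2 and a step difference of -0.81 ± 0.26 (adjusted p = 0.0462, limma). The fall of MAF1 across the step held with each array left out, but its slope missed the threshold without the arrays of 0, 0.01 or 1 mM (adjusted p = 0.420, 0.0907 and 0.196, limma). RRN3 and TFC3 missed it across the step with any of the 5 arrays left out, and RRN5 without that of 0 mM. The list medians were 0.20 for polymerase I initiation and -0.40 for polymerase III initiation together with its repressor MAF1.

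Of the 18 general factors of polymerase II 1 fell and 0 rose, with a median of -0.10. The gene that fell was TFB3, for a TFIIH subunit, with signals of 107, 80.2, 62.5, 45.9 and 53.3 and a step difference of -0.79 ± 0.24 (adjusted p = 0.0386, limma). TOA2, for the small TFIIA subunit, had signals of 189, 225, 89.2, 132 and 165 and did not pass. SPT15, for the TATA-binding protein that all 3 enzymes use, had signals of 199, 164, 232, 203 and 196 and a step difference of 0.22 ± 0.21, and did not pass. Of 6 elongation genes 5 were measured and 0 passed, while SPT6 was below background. DST1, for the cleavage factor TFIIS, had a step difference of 0.46 ± 0.27 and SPT16, for a subunit of the histone chaperone FACT, -0.42 ± 0.25. Of 8 genes for assembly and nuclear import of polymerases 1 rose and 1 fell. IWR1, whose product directs polymerase II into the nucleus, had signals of 39.6, 36.9, 11.4, 12.2 and 12.8, the value at 0.1 mM being the background level, and fell, with a step difference of -1.66 ± 0.19 (adjusted p = 0.0012, limma). GPN3, for a GTPase of polymerase assembly, had signals of 173, 152, 270.2, 229.7 and 258 and rose 1.55-fold. With any 1 of the 5 arrays left out TFB3 and GPN3 missed the threshold, and IWR1 passed it each time. Of the 50 related genes measured in all, 3 rose and 4 fell, beside 11.4% and 22.0% of all genes.

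**Figure D4:**
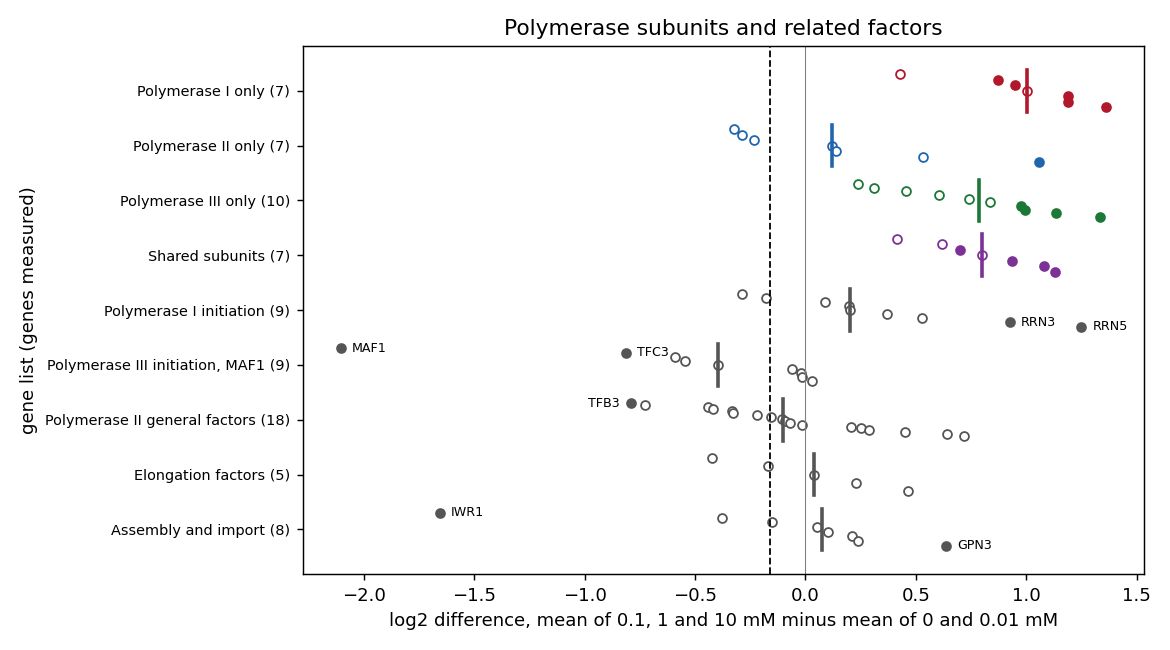
Step difference (x axis, log2) of the subunit genes in 4 classes and of related factors in 5 lists (y axis, with the number of genes measured). Each point is 1 gene, filled where it passed the threshold of 0.05, the vertical bars are list medians, and the dashed line is the median of all genes. The medians of the 5 lists of factors lie between -0.40 and 0.20, and MAF1 and IWR1 are the lowest points.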

How the data were processed

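RNA of 5 yeast cultures, 1 per phosphate dose, was measured on 5 arrays. The values the authors deposited are intensity signals per probe set on a linear scale, summarised with MAS5 per the submitters' processing notes (its scaling target: not given in the sources used here). Signal over background sets the precision, and no array was repeated, so p-values measure only the scatter of 5 arrays around a line or a step.

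Of 9335 probe sets 6504 had 1 gene, all matched to RefSeq assembly R64, 328 had several and 2503 were not listed. Signals below the 40th percentile of all values, 11.4, were set to it, log2 was taken, probe sets above it on at least 2 arrays were kept (5083), and a gene with several of them took their mean, for 4824 genes. A line in dose order and the difference of 0.1, 1 and 10 mM minus 0 and 0.01 mM were fitted to all genes with limma 3.58.1 in R 4.3.3 (lmFit, eBayes, Benjamini-Hochberg adjustment, threshold 0.05). The fits were tested on simulated data. Alternatives changed the scaling, the background level, the filter, the choice of probe set, the variance model, the dose scale, the parting of the doses and the arrays included.

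The text names all 31 subunit genes, the 2 genes of each related list with the largest step difference in size, and the marker genes. The members, the lists and the parting of the doses were chosen with earlier results of these data known. Promoter and protein sequences were not analysed here. The level of 1 probe set is not compared with that of another.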

Additional observations from a re-analysis of the deposited data

How the results depend on the processing

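No paired analysis was possible because each dose had 1 array. For the step difference of the subunit genes, 338 of 434 combinations of gene and alternative kept direction and call, 27 came to pass, 61 no longer passed and 8 changed sign; for the line in dose order 422 of 434 kept both, 5 came to pass and 7 changed sign. The causes of these changes were not tested. The number of subunit genes that rose across the step was 14, 23 with arrays scaled to 1 median, 6 with no filter on dim probe sets (4.24% of all genes) and 0 with the doses parted between 0.1 and 1 mM. RPA34, RPB5 and RPB9 passed with each array left out and in the other settings that keep the parting of the doses. With 1 array left out 6 to 12 rose across the step, beside 5.31% to 7.46% of all genes, and 0 to 4 along the line, beside 0 to 4.68%.

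With arrays scaled to 1 median the signs turned for the slopes of RPB3 (0.0036), RPB11 (0.054) and TOA2 (0.0051) and for the step differences of RPB3 (0.088) and RPB7 (0.032). After quantile normalization they turned for the slope of RPB11 (0.038) and the step difference of RPB3 (0.045), and polymerase III minus the shared genes came to 0.14. With the doses parted between 0.1 and 1 mM the step differences of RPO21 (-0.016), RPC11 (-0.0087) and STE2 (-0.058) turned. With 1 array left out, slopes ranged from -0.030 to 0.081 for RPO21, -0.030 to 0.16 for RPC37, -0.022 to 0.25 for RPC10, -0.0072 to 0.059 for SPT15, -0.0089 to 0.15 for DST1, -0.037 to 0.26 for TRP1 and -0.044 to 0.13 for STE2. Step differences then ranged from -0.068 to 0.31 for RPO21, -0.025 to 0.30 for RPB4, -0.0022 to 0.48 for RPC37 and -0.075 to 0.75 for TRP1.

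The median of 10 minus 0 mM, with arrays scaled to 1 median, was 1.04 for polymerase I, 0.46 for II, 0.93 for III and 1.28 for the shared genes. After quantile normalization it was 0.95, 0.41 and 0.92 for I, II and III, and with arrays at equal spike-in signal 4.02, 3.43, 3.91 and 4.26 for the 4 classes in the same order. Relative to the median of all genes it was 0.83, 0.25, 0.72 and 1.07. The median step difference was 1.32, 0.44, 1.11 and 1.12 with arrays scaled to 1 median, 1.23, 0.38 and 1.02 (I, II and III) after quantile normalization, and 3.26, 2.38, 3.04 and 3.05 at equal spike-in signal. With 1 array left out it ranged from 0.64 to 1.50 for polymerase I, -0.068 to 0.21 for II, 0.47 to 1.08 for III and 0.69 to 1.12 for the shared genes. The difference from the shared genes, an alternative set chosen after seeing the data, then ranged from -0.083 to 0.38 for I, -1.14 to -0.55 for II and -0.26 to 0.10 for III. IWR1, below background at 0.1 mM and set to 11.4 there, has an understated difference.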
